A study of Homo sapiens with 2 samples.

Results

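Collagen genes were described in 2 RNA-seq libraries, 1 of untreated H2087 cells and 1 of untreated H596 cells. Both are established cell lines whose labels give lung adenocarcinoma, and both were grown in RPMI medium with 10% fetal bovine serum. The genes were chosen by their symbols, COL followed by a type number, A and a chain number, which took 44 of the 27685 genes listed and left out pseudogenes and antisense RNAs. Each cell line had 1 library, with 46961500 estimated counts in H2087 and 55387847 in H596, so no difference between the cell lines has a replicate check and no test was made between them. The comparison asks which collagen genes each line transcribed, at what level and from which listed transcripts.

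Collagens are secreted or membrane-bound proteins whose chains wind into a triple helix built on repeats that begin with glycine. Fibrillar collagens give connective tissue its tensile strength and come mostly from fibroblasts, type IV collagen is the sheet-like scaffold of basement membranes, and other members form networks, decorate fibrils or span the plasma membrane. In the lung the epithelium rests on a basement membrane rich in type IV collagen, and the basal cells of stratified and airway epithelium are held to it by hemidesmosomes, which contain the transmembrane collagen XVII.

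The labels were compared with marker genes. Levels are given in FPKM, a fragment count scaled to transcript length and to library size, as the authors deposited them. All 6 epithelial markers had a level of at least 52.3 FPKM in both lines. NKX2-1, the lineage transcription factor of lung adenocarcinoma, had 110.0 FPKM in H2087 and 0.508 in H596. NAPSA, a protease of alveolar type II cells, had 21.9 FPKM in H2087 and 0.0645 in H596. SFTPB, a surfactant protein, had 22 counts in H2087 and 0 in H596, so this marker was near absent in both. The squamous markers KRT5, TP63 and DSG3 together had 0.183 FPKM in H2087 and 195 in H596. These lineage markers went against the label in H596, so the lines are called by their names. Every difference given here is between lines that also differ in these markers, whose part in it was not tested. In such bulk samples, fewer cells of a type and less RNA per cell cannot be told apart.

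The sequences upstream of the genes on which the results turn are shown here, read from the GRCh37 (hg19) reference, the build of the deposited tables. The first lies between COL4A1 and COL4A2, which are transcribed away from each other and share it. The others are the 250 bases before the listed start of COL17A1, COL12A1 and COL4A5, the genes with the highest levels in H596, and before each of the 2 listed starts of COL18A1, the highest gene in H2087. Capitals mark matches on either strand to any of 4 motifs. The core of the box that positions polymerase was searched as TATAAA. The box bound by nuclear factor Y was searched as CCAAT. The GC box bound by Sp1 was searched as GGGCGG. The site of AP-1 was searched as TGANTCA. In these windows matches overlap only between neighbouring GC boxes.
COL4A1 to COL4A2, chr13:110959505-110959613, plus strand: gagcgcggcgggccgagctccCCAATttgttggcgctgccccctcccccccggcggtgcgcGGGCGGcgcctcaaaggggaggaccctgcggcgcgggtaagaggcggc
COL17A1, chr10:105845639-105845888, minus strand: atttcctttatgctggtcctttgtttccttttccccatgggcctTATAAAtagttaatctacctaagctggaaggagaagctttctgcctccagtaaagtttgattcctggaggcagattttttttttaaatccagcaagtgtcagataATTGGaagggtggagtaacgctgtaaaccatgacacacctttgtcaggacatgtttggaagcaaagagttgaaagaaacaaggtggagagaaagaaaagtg
COL12A1, chr6:75915624-75915873, minus strand: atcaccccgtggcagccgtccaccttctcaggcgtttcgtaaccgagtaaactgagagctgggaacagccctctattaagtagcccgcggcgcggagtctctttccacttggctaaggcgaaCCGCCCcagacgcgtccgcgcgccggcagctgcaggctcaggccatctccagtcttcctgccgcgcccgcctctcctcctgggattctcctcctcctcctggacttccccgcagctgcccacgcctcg
COL4A5, chrX:107682824-107683073, plus strand: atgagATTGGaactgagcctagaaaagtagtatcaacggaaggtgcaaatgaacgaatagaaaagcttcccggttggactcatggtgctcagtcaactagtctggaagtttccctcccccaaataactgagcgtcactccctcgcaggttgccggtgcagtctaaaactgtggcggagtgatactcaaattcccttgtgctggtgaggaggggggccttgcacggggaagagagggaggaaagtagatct
COL18A1 upstream start, chr21:46824802-46825051, plus strand: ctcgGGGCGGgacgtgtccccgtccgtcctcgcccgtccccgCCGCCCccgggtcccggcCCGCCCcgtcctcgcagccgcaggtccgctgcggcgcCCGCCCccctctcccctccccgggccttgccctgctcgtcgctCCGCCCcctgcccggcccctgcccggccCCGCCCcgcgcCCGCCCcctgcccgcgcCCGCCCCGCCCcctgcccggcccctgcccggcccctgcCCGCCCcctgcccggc
COL18A1 downstream start, chr21:46875174-46875423, plus strand: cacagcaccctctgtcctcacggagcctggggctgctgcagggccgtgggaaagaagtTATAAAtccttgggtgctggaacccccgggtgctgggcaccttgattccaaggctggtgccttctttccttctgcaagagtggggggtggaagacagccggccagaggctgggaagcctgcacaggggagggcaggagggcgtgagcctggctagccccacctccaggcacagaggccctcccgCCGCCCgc

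The COL17A1 window was 40.4% G and C, with 1 TATAAA, 1 CCAAT and no GC box. The COL12A1 window was 65.2% G and C and held 1 GC box. The COL4A5 window was 50.8% G and C and held 1 CCAAT. The starts of COL18A1 differed in composition. The window before the upstream start was 87.6% G and C with 10 GC boxes and no TATAAA, and that before the downstream start was 66% G and C with 1 GC box and 1 TATAAA. Over the 50 windows of 42 collagen genes, those on chromosome 8 being left out, a GC box was found in 29 (58%), CCAAT in 16 (32%), TATAAA in 7 (14%) and TGANTCA in 1 (2%). Among 30325 distinct windows of the listed genes the shares were 44.2%, 31.5%, 9.74% and 5.84%. Genes without a single strand in the GENCODE annotation, on chromosome 8 or in the mitochondrial genome were left out of these. A match is a description of the letters and does not show that a factor bound there.

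Few collagen genes were transcribed at a level of 1 FPKM or more. In H2087, 8 of the 44 genes (18.2%) reached it, where 45.3% of all genes did. In H596, 13 genes (29.5%) reached it, where 45.5% of all genes did. COL27A1, COL6A1, COL6A2 and COL18A1, 4 of the 44, reached it in both lines, where 41.0% of all genes did. COL1A1, COL8A1, COL13A1 and COL28A1 reached it in H2087 alone, where 4.28% of all genes did, and 9 of the 44 reached it in H596 alone, where 4.55% did. Another 27 genes were under 1 FPKM in both, of which 8 had 0 counts in both: COL1A2, COL11A1, COL10A1, COL6A5, COL6A6, COL25A1, COL19A1 and COL15A1. A count of 0 allows up to 3 counts, which for these 8 genes would be at most 0.0190 FPKM in H2087 and 0.0161 in H596. Counts of 0 in both lines were found in 18.2% of the collagen genes and 30.4% of all genes. In H2087, 13 of the 44 had 0 counts, where 36.3% of all genes did, and in H596, 15 had 0 counts, where 36.0% of all genes did.

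**Figure D1:**
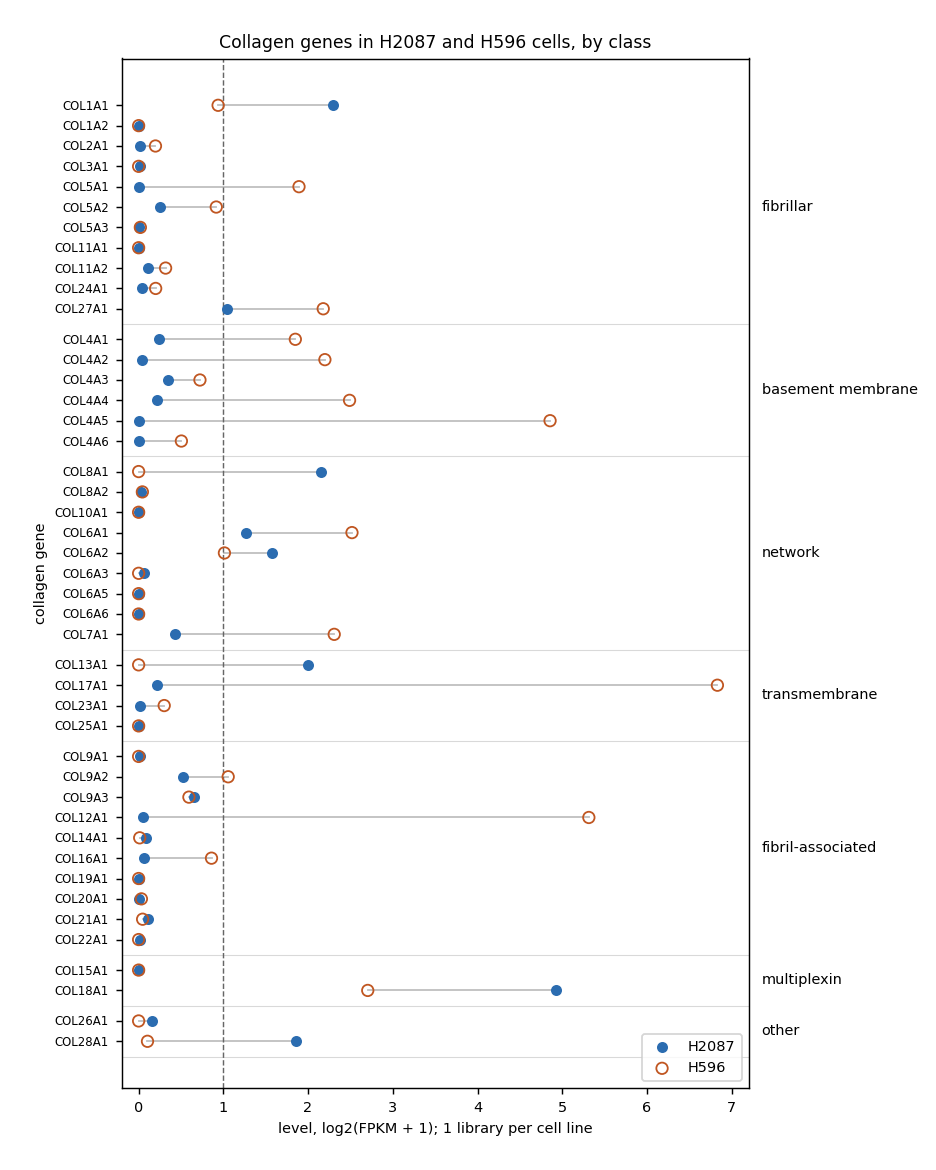
Level of each of the 44 collagen genes in the 1 library of H2087 (filled circles) and the 1 library of H596 (open circles), on a log2(FPKM + 1) axis, grouped by class. The dashed line is 1 FPKM; COL17A1, COL12A1 and COL4A5 stand far to the right in H596 and COL18A1 in H2087, while most genes lie near 0 in both.

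The summed level of the 44 genes was 49.7 FPKM in H2087 and 218 in H596, 4.39 times as much, and took 0.0267% and 0.155% of the estimated counts. A few genes made up most of each sum. In H2087, COL18A1, COL1A1 and COL8A1 held 73.9% of it. In H596, COL17A1, COL12A1 and COL4A5 held 82.3%. Without these 3, chosen as the highest in H596, the other 41 genes summed to 49.5 FPKM in H2087 and 38.5 in H596. Because the 3 were chosen from H596, the choice itself favoured this order. COL18A1 alone held 29.3 FPKM of the sum of the 41 genes in H2087 and 5.51 in H596. The order of the 2 sums is therefore not evidence about the rest of the family. By class, the summed level was 0.650 FPKM in H2087 and 39.8 in H596 for basement membrane collagens, 3.16 and 113 for transmembrane collagens, and 1.25 and 41.2 for fibril-associated collagens. Single genes made up most of these H596 sums. COL4A5 held 70.2% of the basement membrane sum, COL17A1 99.8% of the transmembrane sum and COL12A1 94.0% of the fibril-associated sum. It was 5.28 and 8.60 for fibrillar collagens and 7.26 and 9.73 for the network group, and it was higher in H2087 for the multiplexins, at 29.3 and 5.51.

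Differences between the lines were computed as log2(FPKM + 1), H596 minus H2087, and a difference of at least 1 in size, 2-fold on this scale, was counted. Over all genes with a mean of at least 1 FPKM, 32.4% passed this level, 18.2% higher and 14.2% lower in H596, and the median difference was 0.12. Among the 44 collagen genes, 16 (36.4%) had a mean of at least 1 FPKM, as did 47.1% of all genes. Of these 16, 10 were at least 2-fold higher in H596, 5 were at least 2-fold lower, and COL6A2 was neither. This count is not evidence about the family, because 12 of the 16 genes were under 1 FPKM in one of the lines and entered through the line in which they were high. With no filter on level, 15 of the 44 genes (34.1%) passed, against 16.6% of all 27685 genes. The 28 collagen genes with a mean under 1 FPKM had at most 1.08 FPKM in either library, and 20 of them had counts above 0 in at least 1 library.

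**Figure D2:**
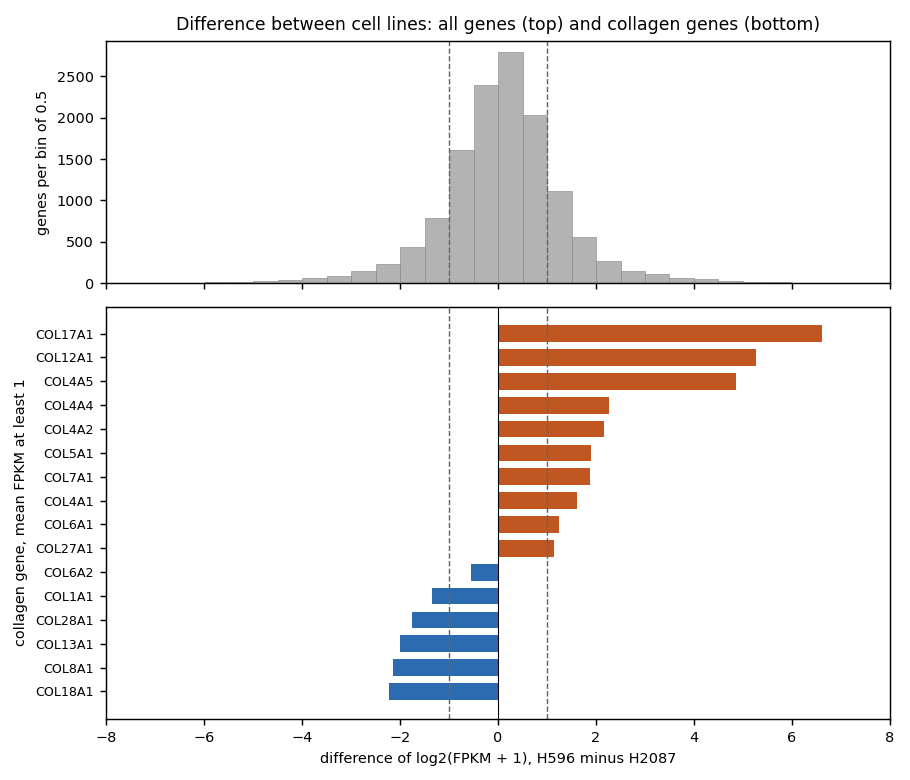
Top, number of genes with a mean of at least 1 FPKM per bin of 0.5 of the H596 minus H2087 difference on the log2(FPKM + 1) scale; 6 of these genes differ by more than 8 and lie outside the axis. Bottom, the same difference for the 16 collagen genes with that mean, with dashed lines at 1 and -1; it runs from 6.62 for COL17A1 to -2.22 for COL18A1.

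Among the transmembrane collagens, COL17A1 was high in H596 and COL13A1 in H2087. COL17A1, on chromosome 10 from 105791046 to 105845638, encodes the collagen XVII chain that anchors the basal cell membrane at the hemidesmosome. Its level was 0.160 FPKM (95% interval, 0.119 to 0.215) from 44 counts in H2087 and 113 FPKM (112 to 114) from 35889 counts in H596, where it ranked 567 among all genes. This is 704-fold higher in H596, with a counting interval of 524 to 969. It was the only collagen gene with a level of at least 100 FPKM in either library. The TATAAA match in the window shown above begins 206 bases before its start, and a part of this match in the level was not tested. COL13A1, on chromosome 10 from 71561644 to 71718904, encodes a membrane collagen found at cell adhesions and the neuromuscular junction. It had 423 counts and 2.99 FPKM (2.72 to 3.29) in H2087 and 0 counts in H596, which is at least 167-fold higher in H2087 against a floor of 3 counts. The H2087 counts of COL13A1 were spread over several transcripts, of which NM_080805 took 35.7% and NM_080802 25.3%. COL23A1 had 2 counts in H2087 and 41 in H596, and COL25A1 had 0 in both.

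For levels, the intervals given here scale the 95% Wilson bounds on the fraction of all counts that fell in the gene to its FPKM, and for folds they are exact Clopper-Pearson bounds. They cover counting error only, and not the spread between cultures.

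Of the 6 basement membrane collagens, 4 had a mean of at least 1 FPKM and were at least 2-fold higher in H596. The share over all genes with that mean was 18.2%. Each of the 4 was at most 0.184 FPKM in H2087, so once it entered through H596 the 2-fold call was fixed by the filter. This count is therefore not evidence about the class. COL4A3 and COL4A6 had a lower mean and did not reach the 2-fold level, at differences of 0.37 and 0.50. All 6 had the larger value in H596, as did 37.6% of all 27685 genes, with 32.1% having the smaller value there. Another 30.4% of all genes had 0 counts in both lines, which none of these 6 had, so the 37.6% is a low comparison. COL4A5, on the X chromosome from 107683074 to 107940775, encodes a chain that pairs with those of COL4A3 and COL4A4 in the glomerulus and lung and with that of COL4A6 in skin. It had 0 counts in H2087 and 10317 counts, 27.9 FPKM (27.4 to 28.5), in H596, which is at least 2905-fold higher. Of its 2 listed transcripts, NM_000495 took 99.4% of the H596 counts. COL4A6, its neighbour on the opposite strand, had 0 counts in H2087 and 162 in H596, or 0.419 FPKM. The outermost listed starts of COL4A5 and COL4A6 are 346 bases apart, but 160 of the 162 COL4A6 counts were assigned to NM_001287758, which starts 1413 bases from COL4A5, and 2 to the outermost start. Over the whole genes, the COL4A5 level was 66.7 times (57.1 to 78.4) that of COL4A6 in H596. The genes of this pair were thus both present in H596 alone, at very different levels.

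COL4A1 and COL4A2 encode the chains of the most widespread form of type IV collagen, and only 109 bases lie between their listed ends on chromosome 13. COL4A1 had 58 counts, 0.184 FPKM, in H2087 and 967 counts, 2.60 FPKM, in H596, which is 14.2-fold higher (10.9 to 18.8). COL4A2 had 9 counts, 0.0264 FPKM, in H2087 and 1316 counts, 3.59 FPKM, in H596, which is 136-fold higher (71.4 to 298). In H596 the level of COL4A2 was 1.38 times (1.27 to 1.499) that of COL4A1, and in H2087 it was 0.144 times (0.0625 to 0.292). The shared region between them is 78.0% G and C and holds 1 CCAAT and 1 GC box.

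COL4A3 and COL4A4, also transcribed away from each other, have 5 bases between their listed ends on chromosome 2. COL4A4 had 82 counts, 0.165 FPKM, in H2087 and 2708 counts, 4.61 FPKM, in H596, which is 28.0-fold higher (22.5 to 35.3). COL4A3 had 107 counts, 0.275 FPKM, in H2087 and 300 counts, 0.651 FPKM, in H596, which is 2.37-fold higher (1.89 to 2.98), although its difference of 0.37 on the log2(FPKM + 1) scale was under the 2-fold level. The level of COL4A4 was 7.08 times (6.29 to 8.01) that of COL4A3 in H596 and 0.599 times (0.444 to 0.806) in H2087. The genes of a pair transcribed away from each other thus had close levels in H596 for COL4A1 and COL4A2, and levels several-fold apart for the other pairs.

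Fibrillar collagens were sparse in both lines. COL1A1, on chromosome 17 from 48261457 to 48279000, encodes the main chain of type I collagen, the most abundant collagen of connective tissue. It had 1106 counts, 3.89 FPKM (3.67 to 4.13), in H2087 and 308 counts, 0.916 FPKM (0.819 to 1.02), in H596, which is 4.25-fold higher in H2087 (3.74 to 4.84). COL1A2, which encodes its partner chain, had 0 counts in both lines. COL3A1, the type III chain of distensible tissue, had 2 counts in H2087 and 0 in H596. COL5A1, a chain of the type V collagen that nucleates fibrils, had 0 counts in H2087 and 1299 counts, 2.71 FPKM (2.57 to 2.86), in H596, at least 366-fold higher. Its partner COL5A2 had 65 counts, 0.196 FPKM, in H2087 and 349 counts, 0.887 FPKM, in H596, so COL5A1 stood at 3.06 times (2.72 to 3.45) the level of COL5A2 in H596.

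COL27A1, a fibrillar collagen of cartilage, was the only fibrillar member over 1 FPKM in both lines. It had 399 counts, 1.07 FPKM (0.966 to 1.18), in H2087 and 1563 counts, 3.53 FPKM (3.36 to 3.71), in H596, which is 3.31-fold higher (2.96 to 3.70). The remaining fibrillar genes had at most 60 counts in either library: COL24A1 had 11 and 60, COL11A2 26 and 53, COL2A1 2 and 43, and COL5A3 0 and 5 in H2087 and H596.

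Because fibrillar collagens are typical of fibroblasts, other stromal markers were set beside them. DCN, LUM, PDGFRA, PDGFRB, THY1, FAP and POSTN together had 0.0693 FPKM in H2087 and 9.80 in H596. PDGFRA, THY1, FAP and POSTN had 0 counts in both lines. DCN, a proteoglycan that binds collagen fibrils, accounted for almost all of the H596 sum, with 0 counts in H2087 and 2361 counts, 9.77 FPKM, in H596, and LUM had 0 and 4 counts. The endothelial markers PECAM1, CDH5 and VWF were at most 0.489 FPKM in either line, and the leukocyte markers PTPRC and CD3E had 0 counts in both. CD68, a leukocyte marker that other cells also express in lysosomes, had 128 FPKM in H2087 and 25.6 in H596. Within the stromal list, DCN moved with the collagens that were higher in H596, and its part in their levels was not tested.

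The network group, taken here as the short-chain, beaded-filament and anchoring collagens, went in both directions. COL8A1, a short-chain collagen of vessel walls and the cornea, had 509 counts, 3.46 FPKM (3.17 to 3.77), in H2087 and 0 in H596, at least 201-fold higher in H2087. Its counts were divided almost evenly between NM_001850, with 256, and NM_020351, with 253. COL7A1, on chromosome 3 from 48601506 to 48632593, encodes the anchoring fibrils that fasten the basement membrane to the underlying dermis. It had 151 counts, 0.343 FPKM (0.293 to 0.402), in H2087 and 2056 counts, 3.95 FPKM (3.78 to 4.13), in H596, which is 11.5-fold higher (9.76 to 13.7). COL8A2 had 5 and 8 counts, and COL10A1, the collagen of hypertrophic cartilage, had 0 in both.

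Type VI collagen forms beaded filaments from the chains of COL6A1, COL6A2 and a longer chain, usually that of COL6A3. COL6A1 had 287 counts, 1.41 FPKM (1.26 to 1.59), in H2087 and 1134 counts, 4.73 FPKM (4.46 to 5.01), in H596, which is 3.34-fold higher (2.93 to 3.82). COL6A2, which lies 93.1 kb further along chromosome 21 on the same strand, went the other way. It had 317 counts, 1.98 FPKM (1.77 to 2.21), in H2087 and 191 counts, 1.02 FPKM (0.883 to 1.17), in H596, a difference of -0.56 on the log2(FPKM + 1) scale. The ratio of COL6A1 to COL6A2 was 0.716 (0.608 to 0.842) in H2087 and 4.65 (3.98 to 5.44) in H596, a change beyond counting error. COL6A3 had 24 counts in H2087 and 0 in H596, and COL6A5 and COL6A6 had 0 in both.

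Of the fibril-associated collagens, COL12A1 stood apart. COL12A1, on chromosome 6 from 75794042 to 75915623, encodes collagen XII, which bridges fibrils to their surroundings in tendon, ligament and remodelling tissue. It had 20 counts, 0.0359 FPKM (0.0232 to 0.0554), in H2087 and 25020 counts, 38.7 FPKM (38.3 to 39.2), in H596, which is 1079.8-fold higher, with an interval of 699 to 1768. The long transcript NM_004370 took 96.0% of the H596 counts and the short NM_080645 the other 4.02%. COL16A1, found near basement membranes and microfibrils, had 12 counts, 0.0447 FPKM, in H2087 and 259 counts, 0.815 FPKM, in H596. COL9A2, a cartilage collagen, reached 1.08 FPKM in H596 from 174 counts, against 0.435 FPKM from 59 counts in H2087, and COL9A3 had 68 and 72 counts. COL9A3 overlaps TCFL5, a more abundant gene on the opposite strand with 1153 and 2281 counts, so its counts are uncertain where reads were not assigned by strand. COL14A1, COL21A1, COL20A1, COL22A1, COL9A1 and COL19A1 had at most 23 counts in either library.

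COL18A1 was the highest collagen gene of H2087. It lies on chromosome 21 from 46825052 to 46933634 and encodes collagen XVIII, a heparan sulfate proteoglycan of basement membranes whose end fragment is endostatin. It had 8232 counts, 29.3 FPKM (28.7 to 30.0), in H2087 and 1700 counts, 5.51 FPKM (5.26 to 5.78), in H596, which is 5.32-fold higher in H2087 (5.05 to 5.61). The gene level concealed a difference between its starts, which lie 50.4 kb apart. NM_130445, the shortest of the 3 listed transcripts and the only one from the upstream start, had 945 counts, 3.63 FPKM, in H2087 and 1694 counts, 5.50 FPKM, in H596. NM_030582 and NM_130444, from the downstream start, together had 7287 counts, 25.7 FPKM, in H2087 and 6 counts, 0.0134 FPKM, in H596.

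The downstream start thus took 88.5% (87.8 to 89.2) of the COL18A1 counts in H2087 and 0.353% (0.162 to 0.768) in H596. Most of the downstream counts of H2087, 7078, were assigned to NM_030582, and 209 to NM_130444. By the upstream start alone the order of the lines was reversed, with the higher level in H596. Of the windows shown above, that of the upstream start holds 10 GC boxes, and that of the downstream start holds a TATAAA that begins 192 bases before it. A part of these matches in the counts was not tested. The authors' software estimated how many reads belong to each transcript where exons are common to several, and the intervals do not cover the error of that step. The antisense RNAs COL18A1-AS1 and COL18A1-AS2 lie within the gene and had 0 counts in both lines. COL15A1, the other multiplexin, also had 0 counts in both.

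**Figure D3:**
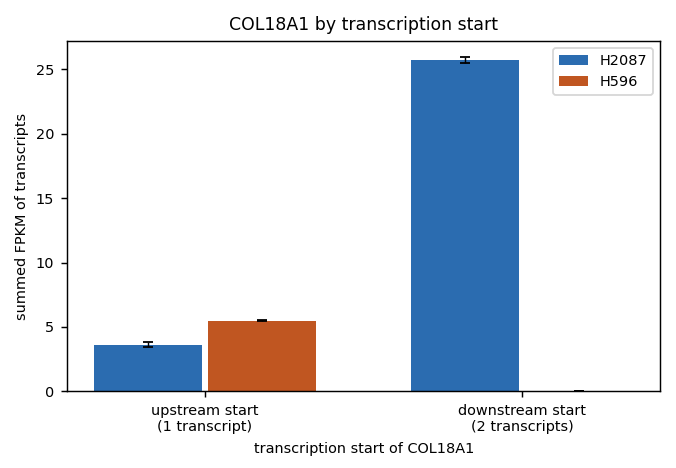
Summed FPKM of the COL18A1 transcripts from the upstream start (1 transcript) and the downstream start (2 transcripts), 1 library per cell line. Error bars are the 95% Wilson interval of each start's share of the COL18A1 counts; the downstream start had 25.7 FPKM in H2087 and 0.0134 in H596.

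COL28A1, a von Willebrand factor A domain collagen of the nervous system, had 441 counts, 2.61 FPKM (2.38 to 2.87), in H2087 and 15 counts, 0.0752 FPKM (0.0456 to 0.124), in H596, which is 34.8-fold higher in H2087 (20.9 to 62.7). COL26A1 had 17 counts in H2087 and 0 in H596.

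The genes that modify, fold, trim and cross-link collagen chains were read next, as a list of 34. Of these, 25 had a mean of at least 1 FPKM. Among them 5 were at least 2-fold higher in H596, 8 were at least 2-fold lower and 12 were neither. Over all genes with that mean 18.2% were higher and 14.2% lower. FKBP10, PCOLCE2, LOXL2 and LOXL3 were under 1 FPKM in H596, and P3H2 in H2087, so each entered through the other line. The tally is therefore not evidence about the list. The median difference of these 25 genes was -0.51, against 0.12 over all genes with that mean, but over all 34 genes with no filter it was -0.01. The following genes were chosen after their values were seen, as abundant members in both lines. PPIB, a prolyl isomerase of the endoplasmic reticulum, had 329 FPKM in H2087 and 432 in H596. P4HB, the disulfide isomerase subunit of prolyl 4-hydroxylase, had 174 and 299. SERPINH1, the collagen chaperone HSP47, had 70.3 and 98.4.

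On the log2(FPKM + 1) scale FKBP10 differed most of the 34, by -5.82. It encodes FKBP65, a chaperone of procollagen that also acts with lysyl hydroxylase, and had 13814 counts, 99.97 FPKM, in H2087 and 130 counts, 0.793 FPKM, in H596, which is 126-fold higher in H2087 (106 to 151). As a plain ratio, P3H3 and ADAMTS14, which were under the mean filter and are named after their values were seen, differed as much. P3H3, a prolyl 3-hydroxylase, had 216 counts in H2087 and 2 in H596, 128-fold higher in H2087 (34.9 to 1061). ADAMTS14, which removes N-terminal propeptides, had 391 counts in H2087 and 0 in H596, at least 154-fold higher in H2087. FKBP14, a relative of FKBP10, was higher in H596, with 6.71 FPKM in H2087 and 24.0 in H596. The next largest differences towards H2087 were those of PCOLCE2 and PCOLCE, enhancers of propeptide removal, and of LOXL2 and LOXL3, which oxidise lysines for cross-links. PCOLCE2 had 3.76 FPKM in H2087 and 0.304 in H596, and PCOLCE had 6.01 and 1.07. LOXL2 had 3.63 FPKM in H2087 and 0.290 in H596, and LOXL3 had 2.59 and 0.308. Of the 5 cross-linking genes, 4 had a mean of at least 1 FPKM, and LOXL2 and LOXL3 were at least 2-fold lower in H596. Over all genes with that mean the share was 14.2%. LOXL2 and LOXL3 entered through H2087 and were at most 0.308 FPKM in H596, so the filter fixed their calls. The count is not evidence about these genes. LOX and LOXL1 did not reach the 2-fold level. LOXL4 was under the mean filter, with 81 counts in H2087 and 4 in H596, 23.8-fold higher in H2087 (8.93 to 89.3). All 5 had the smaller value in H596, as did 32.1% of all 27685 genes, while 37.6% had the larger value there. Another 30.4% of all genes had 0 counts in both lines, which none of these 5 had, so the 32.1% is a low comparison. The summed level of the 5 genes was 19.4 FPKM in H2087 and 7.86 in H596.

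Towards H596, BMP1, P3H2, FKBP14, COLGALT1 and PLOD1 passed the mean filter and the 2-fold level. BMP1, the protease that removes the C-terminal propeptide of fibrillar procollagens, had 3.27 FPKM in H2087 and 24.9 in H596, 7.61-fold higher (6.96 to 8.34). P3H2, a prolyl 3-hydroxylase that acts on type IV collagen, had 0.450 FPKM in H2087 and 5.996 in H596, 13.3-fold higher (10.6 to 16.9). COLGALT1, which adds galactose to hydroxylysine, had 23.0 and 71.0 FPKM. PLOD1, a lysyl hydroxylase, had 24.6 and 52.5 FPKM. Its difference of 1.06 was the smallest of these 5 genes. With TMM scaling or with centring on the median of all genes, 4 genes of the list in place of 5 passed. COLGALT2 and TLL1, under the mean filter and named after their values were seen, were also higher in H596. COLGALT2 had 28 counts in H2087 and 462 in H596, 14.2-fold higher (9.69 to 21.6). TLL1 had 0 counts in H2087 and 55 in H596, at least 15.5-fold higher.

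Of the 8 collagen receptors examined, 4 had a mean of at least 1 FPKM, and of these 1 was at least 2-fold higher in H596 and 2 were at least 2-fold lower, where 18.2% and 14.2% of all genes were. DDR1, a receptor tyrosine kinase of epithelia that binds collagen, had 25.5 FPKM in H2087 and 218 in H596, 8.54-fold higher (8.29 to 8.80). ITGA2, the integrin chain that binds type I collagen in epithelial cells, had 53.4 FPKM in H2087 and 10.1 in H596, 5.27-fold higher in H2087 (5.11 to 5.45), and ITGA1, which binds type IV collagen, had 3.63 and 0.622, so it passed the mean filter through H2087 only. Their common partner ITGB1 had 72.0 and 134 FPKM. MRC2, an uptake receptor for collagen, had 1.24 and 0.709 FPKM, and DDR2, ITGA10 and ITGA11 were at most 0.140 FPKM in either library.

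Collagen XVII acts together with other hemidesmosome proteins, and the values of 7 such partners are given as a description, without a tally, since the first list was longer. ITGB4 and ITGA6, the integrin that binds laminin at the hemidesmosome, had 9.57 and 8.62 FPKM in H2087 and 134 and 90.2 in H596. LAMB3 and LAMA3, chains of laminin-332, had 16.9 and 14.5 FPKM in H2087 and 152 and 46.5 in H596. PLEC and DST, which link the plaque to keratin filaments, had 25.7 and 12.8 FPKM in H2087 and 71.4 and 33.2 in H596. CD151, a tetraspanin, had 107 FPKM in H2087 and 152 in H596, which did not reach the 2-fold level. None of these 7 differed as much as COL17A1, whose level was within the range of its partners in H596, 33.2 to 152 FPKM, and below all of them in H2087, where the lowest was 8.62 FPKM.

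**Figure D4:**
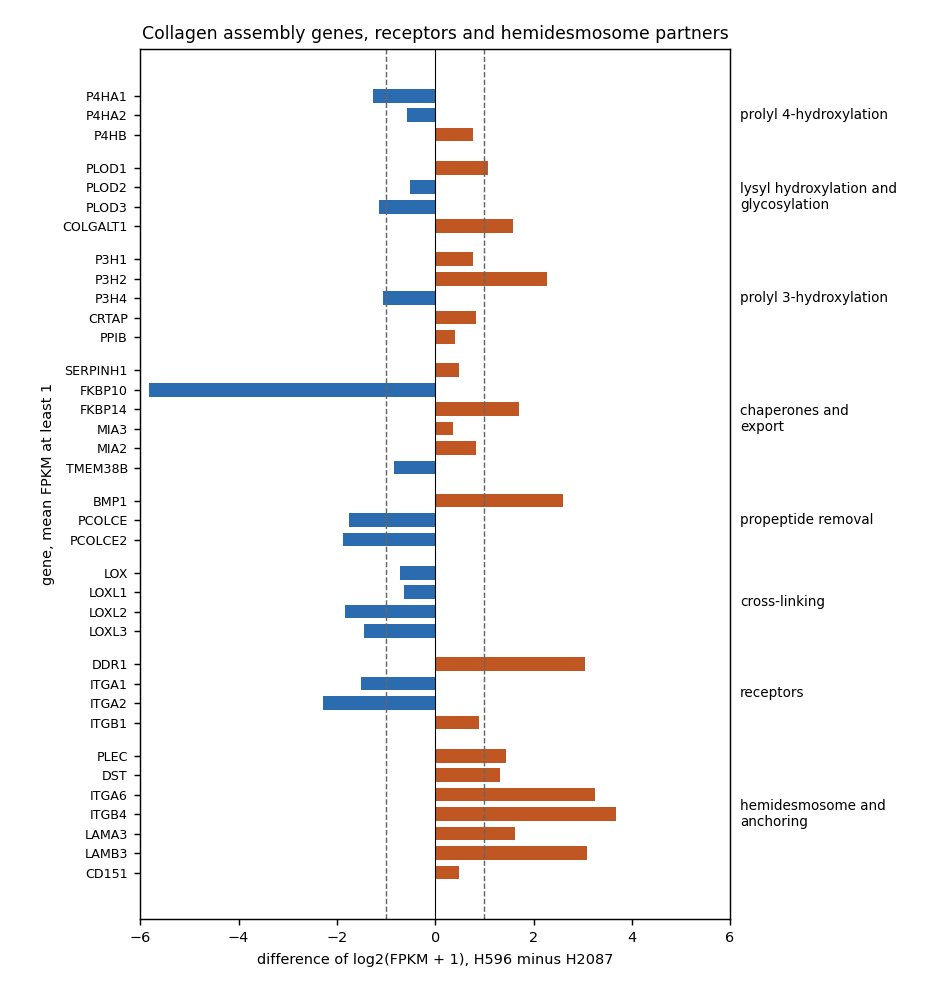
Difference of log2(FPKM + 1), H596 minus H2087, for the collagen assembly genes, collagen receptors and hemidesmosome and anchoring partners with a mean of at least 1 FPKM, by role, with dashed lines at 1 and -1. FKBP10 has the longest bar towards H2087, the cross-linking bars shown point to H2087, and ITGB4 has the longest bar towards H596.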

How the data were processed

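RNA-seq was measured in 1 library each of H2087 and H596 cells, made from total RNA with a stranded mRNA kit. Per the labels, the authors used bcl2fastq 1.8.4, Trimmomatic, HISAT2 2.0.5 and StringTie 1.3.3b with hg19 (GRCh37). The authors deposited FPKM values and whole-number estimated counts for 27685 genes and 63714 RefSeq transcripts. How the estimated counts were made, and whether strand was used, is not given in the sources used here.

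From these, differences of log2(FPKM + 1) were computed over genes with a mean of at least 1 FPKM, and a difference of at least 1 was counted. The pseudocount of 1 understates the change of low genes. Shares of counts have 95% Wilson intervals and FPKM ratios 95% Clopper-Pearson intervals, which cover counting error only; 0 counts were set against a limit of 3 counts. With 1 library per line no test was made. The plan was to name collagens with a mean of at least 1 FPKM and to give others by counts and ranges. At most the 5 assembly genes with the largest differences in each direction were to be named. Beyond this plan, collagens below that mean and some other assembly genes were named after their values were seen. Of the partner genes first listed, 1 is not reported here. The collagen genes and the other lists were chosen with earlier results of these data known, and the promoter motifs after the values were seen. Windows were 250 bases before each listed start, with strand from GENCODE; RefSeq's promoter table held 32 of the 44 genes, of which 29 shared a run of 40 bases with these windows. Alternatives were the pseudocount, the filter, TPM, TMM scaling (edgeR 4.0.16 in R 4.3.3), centring, the highest single transcript and the level counted as detected. Scripts used Python 3.11.15, pandas 2.3.3 and scipy 1.17.1 and were tested on simulated data.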

Additional observations from a re-analysis of the deposited data

Results flagged for a closer look

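COL6A4P1, a collagen VI pseudogene outside the 44 genes because its symbol does not match the rule, had 36 counts, 0.326 FPKM, in H2087 and 0 counts in H596. It was picked out as a signal in data that the comparisons did not use. The other 7 pseudogenes and antisense RNAs left out by the rule had 0 counts in both lines.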

How the results depend on the processing

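No paired analysis was possible because H2087 and H596 are single libraries, which also means that leaving out a library gives no comparison. Of 36 recomputed counts, 30 stayed within 1.5 times. With a mean of at least 5 FPKM, 3 collagen genes in place of 10 were at least 2-fold higher in H596, 1 in place of 5 was lower, and 4 assembly genes in place of 8 were lower, since fewer genes entered. By the highest single transcript, 3 collagen genes in place of 5 were lower, since COL8A1 and COL13A1, whose counts are split over transcripts, no longer reached the mean. With TPM, 8 assembly genes in place of 5 were higher; the cause was not tested. At 2 FPKM, 5 collagen genes in place of 8 were detected in H2087. Of 96 recomputed differences of named collagen genes, 0 changed sign, and no gene that still entered changed its 2-fold call. Their sizes did depend on the setting, and 45 of the 96 moved beyond counting error. With a pseudocount of 0.1, for example, the difference of COL5A1 was 4.81 in place of 1.89. Over all genes, calls higher in H596 made up 56.2% as deposited, 48.8% with TMM scaling and 64.2% with TPM, and the median difference was 0.12, -0.00 and 0.29. Depth limits the genes with few counts, and differences between cultures were not measured.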
